A study of Oryctolagus cuniculus with 9 samples.

Results

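FBXL13, CERKL, PMCH, KCTD19, SLC9A5, SLC19A1 and CRYBG2 are 7 of the 14870 genes listed for rabbit cartilage. They were chosen by symbol, because their reads were higher in knee defects than in healthy cartilage and because they lie over or beside other genes. Each was therefore read together with its neighbours on the genome. Their values against healthy cartilage are the values they were chosen on and are a description, and counts of calls among them only describe that choice. The contrast of both kinds of defect was not the basis of the choice and was tested. It uses the same defect libraries, so it is not independent of the choice.

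RNA sequencing was performed on 9 libraries of New Zealand rabbits, 3 in each of 3 groups, all taken 12 weeks after surgery. The rabbits were 4 to 5 months old when they were selected for the study. CLCS samples came from trochlear defects filled with a scaffold of collagen and chondroitin sulphate in the right knee. Untreated samples came from the same kind of defect left empty in the left knee. The paper describes both defects in each rabbit, and the sources used here do not say which libraries share a rabbit. Scaffold and knee side cannot be told apart between these groups. Healthy samples came from cartilage of the condyle, so group and joint site cannot be told apart in any difference from healthy cartilage. The tissue was sequenced in bulk, where fewer cells of a type and less RNA per cell cannot be told apart. No source used here says that the libraries of a group came from separate animals, so p-values measure the spread between these libraries only.

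Reads counted on the listed genes summed to between 724986 and 1226408 per library. These sums are far smaller than the numbers of aligned read pairs that the paper lists, and the reason was not tested. The gene ENSOCUG00000023467, which has no symbol, took 1.49% of the reads of untreated replicate 3 and 17.8% to 49.4% of the reads of the other libraries. Of 10 chondrocyte markers in the tables, MATN1 and MATN3 had at most 3 reads in every library, and COL2A1, the chain of the main cartilage collagen, gave 60.7% to 90.9% of their summed level. That sum was 754 normalised reads in untreated replicate 3 and 5073 to 28090 in the other libraries. Each result that rests on untreated replicate 3 is given with and without it.

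The 7 genes belong to unrelated families. FBXL13 encodes an F-box protein, the part of an SCF ubiquitin ligase that binds substrates. CERKL is a relative of ceramide kinase known from inherited retinal degeneration, PMCH encodes the precursor of melanin-concentrating hormone, a peptide of hypothalamic neurons, and KCTD19 is known for its part in meiosis of male germ cells. SLC9A5 encodes a sodium-proton exchanger found mainly in brain, SLC19A1 the reduced folate carrier of the cell membrane, and CRYBG2 a protein with crystallin-type domains. Genes that overlap matter in RNA sequencing because a read from shared sequence can be counted for either gene, and without the strand of the read genes on opposite strands cannot be told apart.

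FBXL13 (ENSOCUG00000011149) had 5.65, 13.2 and 6.32 normalised reads in healthy replicates 1, 2 and 3, where a normalised read is a read count divided by the size factor of its library. It had 102, 126 and 459 in untreated replicates 1, 2 and 3. It had 136, 261 and 121 in CLCS replicates 1, 2 and 3. All 6 defect libraries lay above all 3 healthy libraries, and the lowest defect libraries held 7.70 (untreated) and 9.15 (CLCS) times the level of the highest healthy one. The healthy mean was 8.39 ± 4.17, the untreated mean 229 ± 200 and the CLCS mean 173 ± 76.7 (SD, n = 3). On the log2 scale, after adding 1 to each value, FBXL13 lay 4.36 (SE 0.62) above healthy cartilage in untreated samples, 3.69 (SE 0.43) without untreated replicate 3, and 4.21 (SE 0.43) above it in CLCS samples. All such log2 fold changes were fitted by limma.

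KCTD19 (ENSOCUG00000010077) had 42.4, 153 and 61.4 normalised reads in the healthy libraries. The untreated libraries held 607, 555 and 4480. The CLCS libraries held 1247, 616 and 1906. Untreated replicate 3 stood far above the other untreated libraries, at 7.71 times their mean, and healthy and defect libraries did not overlap. The log2 fold change was 3.94 (SE 0.87) in untreated samples, 2.96 (SE 0.57) without untreated replicate 3, and 3.93 (SE 0.58) in CLCS samples.

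SLC9A5 (ENSOCUG00000010053), which lies at the same locus as KCTD19, had 0, 7.10 and 8.13 normalised reads in healthy, 54.4, 53.0 and 145 in untreated and 66.1, 59.0 and 52.3 in CLCS libraries. Its CLCS libraries were the closest to each other of any group of defect libraries among the 7 genes, with an SD of 0.17 on the log2 scale. Healthy replicate 1 held 0 reads, which allows up to 3 reads by counting error alone, and the other healthy libraries held 7 and 9 reads. Its log2 fold change reached 4.18 (SE 0.88) in untreated samples, 3.70 (SE 0.96) without untreated replicate 3, and 3.83 (SE 0.80) in CLCS samples. Without healthy replicate 1 the values against healthy cartilage were 3.14 and 2.80.

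SLC19A1 (ENSOCUG00000001727) had 77.3, 137 and 78.6 normalised reads in healthy libraries. It had 350, 778 and 3430 in untreated libraries and 796, 686 and 1149 in CLCS libraries. The untreated libraries spread over 3.29 on the log2 scale, the CLCS libraries over 0.74. Every defect library lay above the healthy ones. SLC19A1 differed by a log2 fold change of 3.36 (SE 0.78) in untreated samples, 2.46 (SE 0.48) without untreated replicate 3, and 3.17 (SE 0.35) in CLCS samples.

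CRYBG2 (ENSOCUG00000016959) was the scarcest of the 7 in healthy cartilage by reads, which are not adjusted for transcript length, with 4 reads in each of the 3 libraries. In untreated libraries it had 26.0, 19.0 and 221 normalised reads, in CLCS libraries 66.1, 20.7 and 48.6. Untreated replicate 3 was again apart, at 9.83 times the mean of the other untreated libraries, while untreated replicate 2 and CLCS replicate 2 were the lowest defect libraries. Its log2 fold change was 3.36 (SE 0.85) in untreated samples, 2.27 (SE 0.32) without untreated replicate 3, and 3.11 (SE 0.43) in CLCS samples.

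PMCH (ENSOCUG00000003034) had 4.71, 6.09 and 10.8 normalised reads in healthy libraries. It had 83.5, 83.0 and 170 in untreated libraries and 75.4, 47.2 and 73.5 in CLCS libraries. The lowest untreated library held 7.66 times and the lowest CLCS library 4.36 times the level of the highest healthy one. For PMCH the log2 fold change was 3.77 (SE 0.43) in untreated samples, 3.43 (SE 0.41) without untreated replicate 3, and 3.05 (SE 0.37) in CLCS samples.

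CERKL (ENSOCUG00000003021) had 77.3, 43.6 and 144 normalised reads in healthy, 553, 743 and 1045 in untreated and 342, 201 and 491 in CLCS libraries. Its CLCS libraries came nearest to healthy cartilage of all 7 genes, the lowest of them being 1.40 times the highest healthy library. For CERKL the log2 fold change was 3.25 (SE 0.48) in untreated samples, 3.01 (SE 0.54) without untreated replicate 3, and 2.02 (SE 0.51) in CLCS samples.

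**Figure D1:**
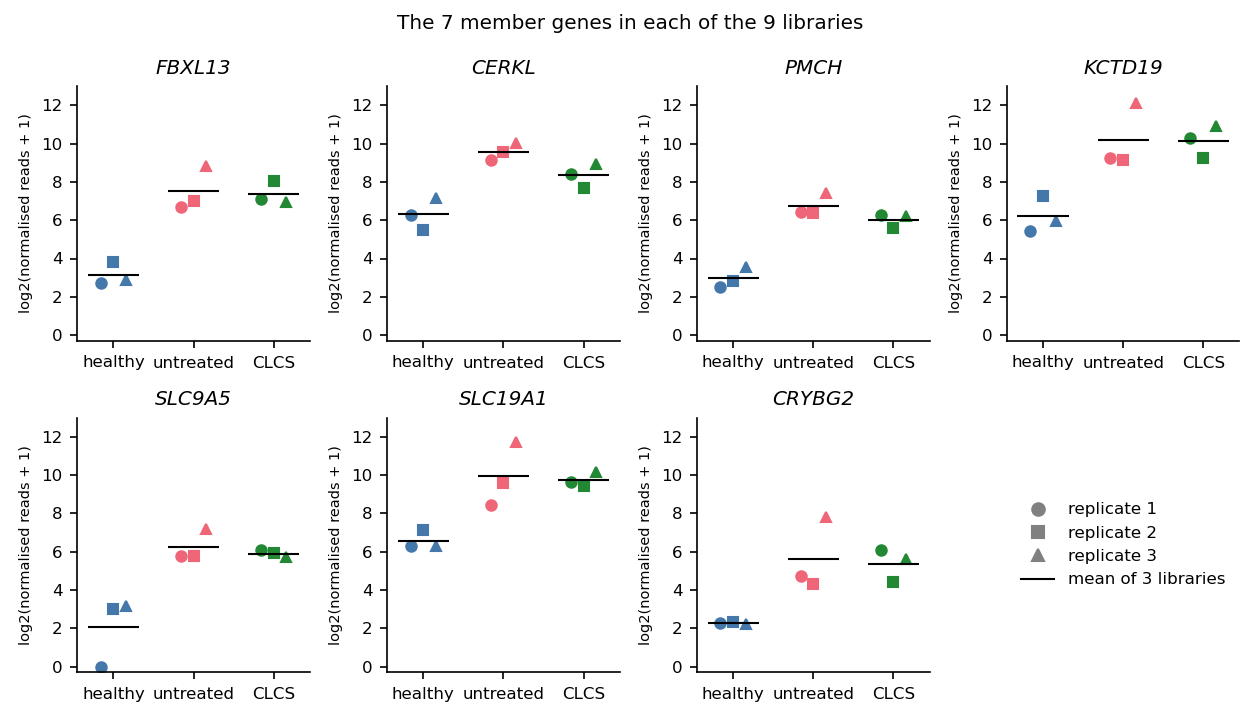
Each panel plots log2 of the normalised reads plus 1 of 1 gene in the 9 libraries, by group; the mark gives the replicate number and the line the mean of the 3 libraries of a group. All defect libraries lie above all healthy libraries in every panel, and untreated replicate 3 (triangle) is the highest of the 9 for all 7 genes.

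By the Benjamini-Hochberg adjusted p of limma under 0.05, 3 of the 7 genes were called higher in untreated samples (CERKL, FBXL13 and PMCH), where 1.34% of the 3496 tested genes were called higher. In CLCS samples 6 of 7 were called, all but CERKL, where 2.13% of 3294 tested genes were called higher. DESeq2, the kind of test the study used, was run again on read counts recovered from the normalised values, so its calls are not those of the study. This run called 6 of 7 higher in untreated samples and 7 of 7 in CLCS samples, beside 4.38% and 4.55% of all tested genes. It gave KCTD19 no adjusted p in untreated samples. By edgeR 4 and 6 of 7 were called, beside 1.37% and 2.76%. Replicate numbers were taken to pair samples in the CLCS contrast, although the labels do not state what a number marks. With the number as a block in the fit, which called 3.79% of all tested genes, 7 of 7 were called, CERKL too. Untreated and healthy libraries of each gene did not overlap for 7 of 7, and the same held for CLCS libraries, against 11.3% and 12.2% of all tested genes that lay wholly above healthy libraries. As the genes were chosen on these contrasts, the counts describe the choice. Leaving out 1 library ended most calls: in untreated samples 0 of the 7 were called by limma without any of 5 of the 6 libraries, and PMCH alone without healthy replicate 3, while in CLCS samples 0 of 7 were called without CLCS replicate 1 and 3 to 6 without each of the other libraries. In each of these fits 7 of 7 had an unadjusted p under 0.05, and the log2 fold change stayed between 1.61 and 4.77.

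Untreated replicate 3 held the highest value of the 9 libraries for 7 of 7 genes. Among all 3812 genes with enough reads it held the highest value for 487, or 12.8%, and among the genes called higher other than these 7 it did so for 17 of 44 in the untreated and 30 of 64 in the CLCS contrast. Against the mean of the other untreated libraries it was 1.61 times higher for CERKL, 2.05 for PMCH, 2.70 for SLC9A5, 4.03 for FBXL13, 6.08 for SLC19A1, 7.71 for KCTD19 and 9.83 for CRYBG2. The untreated means of the last 3 genes, 1519 ± 1668 for SLC19A1, 1881 ± 2251 for KCTD19 and 88.7 ± 115 for CRYBG2 (SD, n = 3), therefore rest largely on 1 library. The mean of the 7 genes, each centred on its own mean of log2 values, was 2.73 in this library, 0.61 to 1.21 in the other 5 defect libraries and -2.94 to -2.03 in healthy ones.

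FBXL13 overlaps 3 named genes, ARMC10, LRRC17 and FAM185A, and LRRC17 lies wholly inside its span. Gene spans were taken from the RefSeq table of the mOryCun1.1 assembly, which is not the build used for alignment, and that table gives no strand. LRRC17, a secreted leucine-rich repeat protein, had 0 reads in each healthy and CLCS library and 2, 1 and 4 reads in the untreated ones. FAM185A had 10, 6 and 2 reads in healthy, 8, 5 and 2 in untreated and 2, 2 and 5 in CLCS libraries. ARMC10 had 0 or 1 read in every library. No library held more than 10 reads on any of these neighbours, while FBXL13 had 126 to 506 reads in untreated and 97 to 265 in CLCS libraries. Here and for the other neighbours, these are counts as assigned to each gene. The gene and strand that the reads came from were not tested. FBXL13 made up 59.1% of its reads and those of FAM185A summed over the healthy libraries, 98.1% over the untreated and 98.2% over the CLCS libraries.

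CERKL overlaps ITGA4, the alpha 4 integrin chain of leukocytes. ITGA4 had 1 read in untreated replicate 3, 1 read in CLCS replicate 3 and 0 in the other 7 libraries, against a total of 2598 CERKL reads in untreated and 929 in CLCS libraries. PMCH lies wholly inside the span of PARPBP, which encodes a partner of the repair protein PARP1 and was not analysed here. A pattern of PMCH can therefore not be set against that of the gene around it.

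KCTD19 and SLC9A5 share a locus on which 5 genes follow each other in the order FHOD1, SLC9A5, PLEKHG4, KCTD19 and LRRC36. PLEKHG4 overlaps KCTD19, and each other gene of the row lies within 1000 bases of the next. PLEKHG4 had 13, 13 and 20 reads in healthy, 7, 3 and 13 in untreated and 4, 5 and 13 in CLCS libraries. Against healthy cartilage PLEKHG4 differed on the log2 scale by -1.14 (SE 0.46) in untreated samples, with a limma adjusted p of 0.264. In CLCS samples the difference was -0.93 (SE 0.48, limma adjusted p = 0.377). PLEKHG4 thus lay on the other side of 0 from SLC9A5 and KCTD19 without passing the test.

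FHOD1, a formin that acts on actin filaments, had 73, 68 and 111 reads in healthy libraries. It had 55, 31 and 15 reads in untreated libraries and 30, 46 and 12 in CLCS libraries, all below the healthy ones. The log2 difference from healthy cartilage was -1.53 (SE 0.45, limma adjusted p = 0.143) for untreated and -1.46 (SE 0.43, limma adjusted p = 0.130) for CLCS samples. Of the reads of FHOD1 and SLC9A5 together, SLC9A5 held 0% to 9.33% in the healthy libraries, 55.6% to 91.4% in the untreated and 56.6% to 77.8% in the CLCS libraries.

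LRRC36 had 65, 160 and 89 reads in healthy, 52, 28 and 47 in untreated and 45, 81 and 136 in CLCS libraries. Its untreated libraries lay below the healthy ones and its CLCS libraries overlapped with them. LRRC36 differed from healthy cartilage by a log2 value of -1.32 (SE 0.42, limma adjusted p = 0.164) for untreated and -0.11 (SE 0.55, limma adjusted p = 0.943) for CLCS samples, and the latter turned to 0.29 without healthy replicate 2 and to 0.32 without CLCS replicate 1. KCTD19 held 45.7% of the reads of both genes over the healthy libraries, 98.0% over the untreated and 92.8% over the CLCS libraries.

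CRYBG2 lies within 1000 bases of ZNF683, a transcription factor of tissue-resident lymphocytes, which had 0 or 1 read in every library. SLC19A1 has 1 named gene within 10000 bases, COL18A1, which encodes a collagen of basement membranes and was not analysed here. SLC19A1 is thus the only one of the 7 with no named gene over it or within 1000 bases in that table.

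**Figure D2:**
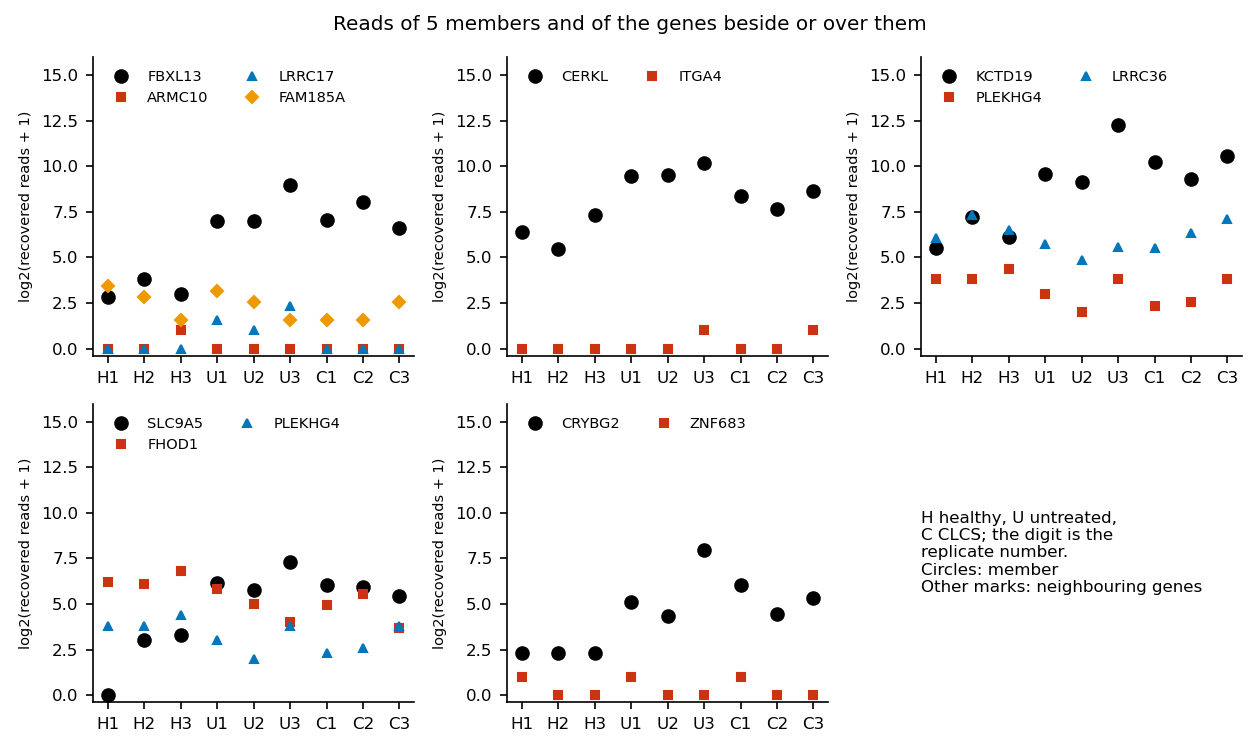
Each panel plots log2 of the reads plus 1 in the 9 libraries for 1 chosen gene (circles) and for the genes over or beside it that are in the tables (other marks). The chosen genes lie higher in the 6 defect libraries than in the healthy ones, while PLEKHG4, FHOD1 and LRRC36 lie level or lower there and the other neighbours stay at or under 10 reads.

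Of the 8 neighbours in the tables, 3 had enough reads to be tested against healthy cartilage, and 0 of the 3 were called by limma or by edgeR, which called 2.49% and 3.73% of all tested genes in untreated and CLCS samples. At an unadjusted p under 0.05 limma counted 3 of 3 in untreated samples, beside 16.6% of all genes, and 1 of 3 in CLCS samples, beside 17.5%, all with a negative log2 fold change. DESeq2 called LRRC36 and FHOD1 lower in untreated samples, beside 7.87% of all genes called in either direction, and FHOD1 lower in CLCS samples, beside 7.38%. No neighbour in the tables was called higher by limma, edgeR or DESeq2. The tables give 1 total per gene, so the position of the reads within a gene and their strand were not tested. Among reads on 13 mitochondrial protein genes, 86.0% to 94.4% per library lay on ND6, the gene of that set encoded on the other strand, and its bearing on genes that overlap was not tested.

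Overlap was common among all genes. Of 2685 genes tested in untreated samples and found in the RefSeq table, 27.7% overlapped another protein-coding gene, against 31.4% of the 35 genes called higher with the 7 left out and 31.2% of the 32 called lower. In CLCS samples the shares were 27.8% of 2526, 37.5% of 48 and 37.0% of 27. With an unadjusted p under 0.05 as the rule, overlap was found for 39.7% of 229 higher genes other than the 7 and 29.8% of 225 lower genes in untreated samples, and for 39.9% of 233 and 27.8% of 216 in CLCS samples. These shares were not tested. Among the 7 genes, FBXL13, CERKL, PMCH and KCTD19 overlapped a named gene, and they had been chosen with this in view.

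CLCS and untreated samples were then compared directly, the contrast of scaffold against empty defect. Scaffold and knee side cannot be told apart in it, and the main fit did not pair the knees of a rabbit. By limma, 0 of 7 genes and 0 of all 3275 tested genes were called, 0%, while 95 genes (2.9%) had an unadjusted p under 0.05. Neither edgeR, with 88 genes (2.69%) at that unadjusted level, nor DESeq2 called any. All 7 log2 fold changes were negative, from -1.22 to -0.02, where the median over all tested genes was -0.00, and 5 of them turned positive when untreated replicate 3 was left out.

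CERKL had the lowest value of the 7, -1.22 on the log2 scale (SE 0.41, 95% interval -2.18 to -0.27), with an unadjusted p of 0.0190 and an adjusted p of 0.996 by limma. Its CLCS libraries, at 201 to 491 normalised reads, lay wholly below its untreated libraries, at 553 to 1045, which 4.52% of all tested genes did. It was -0.99 (SE 0.43) without untreated replicate 3. PMCH, with 47.2 to 75.4 normalised reads in CLCS and 83.0 to 170 in untreated libraries, did not overlap either, and it differed by -0.72 on the log2 scale (SE 0.38, 95% interval -1.60 to 0.16, limma adjusted p = 0.996).

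The other 5 genes overlapped between both kinds of defect. SLC9A5 had a log2 fold change of -0.34 with a 95% interval of -1.33 to 0.65, and FBXL13 one of -0.15 with an interval of -1.56 to 1.26. The intervals were -1.98 to 1.59 for SLC19A1, -1.97 to 1.94 for KCTD19 and -2.37 to 1.88 for CRYBG2. Like that of FBXL13, they span more than a log2 unit in either direction, so neither a fall nor a rise of that size was excluded. With the replicate number as a block, the SE went from 0.76 to 0.54 for SLC19A1, 0.83 to 0.47 for KCTD19 and 0.91 to 0.67 for CRYBG2, and stayed at 0.60 for FBXL13. Without untreated replicate 3 the values were 0.13 for SLC9A5, 0.52 for FBXL13, 0.71 for SLC19A1, 0.97 for KCTD19 and 0.84 for CRYBG2. LRRC36, the neighbour of KCTD19, was 1.21 higher in CLCS samples on the log2 scale (SE 0.48, unadjusted p = 0.0373, adjusted p = 0.996 from limma), and FHOD1 0.06 (SE 0.53).

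**Figure D3:**
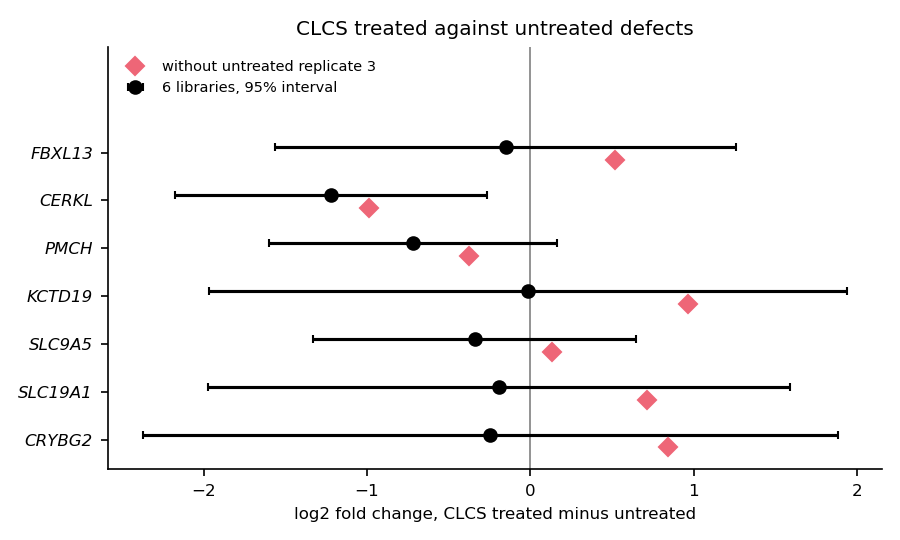
Black points give the log2 fold change of CLCS against untreated samples for the 7 genes with its 95% interval from limma, and diamonds the value without untreated replicate 3. The interval of CERKL, -2.18 to -0.27, lies below 0 before adjustment for all genes tested, and 5 of the 7 diamonds lie above 0.

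The profile of each gene over the 9 libraries was set beside those of the other 3811 genes with enough reads, by the root mean square difference of centred log2 values. Genes share the libraries and the 7 were chosen for a like rise, so these values are a description. PMCH was most like MMP13, the collagenase that degrades cartilage collagen, at 0.38, followed by DUOXA2, a maturation factor of dual oxidases, at 0.41 and METTL4, a methyltransferase, at 0.54. MMP13 had 4.71, 4.06 and 3.61 normalised reads in healthy, 70.1, 71.0 and 116 in untreated and 51.7, 27.6 and 39.8 in CLCS libraries.

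CERKL was most like C1QL3, a secreted C1q-like protein, at 0.48, CCDC152 at 0.50 and DUOXA2 at 0.50. CCDC152 also overlaps another gene, SELENOP, which encodes a selenium transport protein and was not analysed here. Its normalised reads were 5.65, 8.12 and 21.7 in healthy, 81.1, 87.0 and 91.6 in untreated and 68.2, 35.4 and 41.1 in CLCS libraries, and like CERKL it was higher in each untreated than in each CLCS library.

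KCTD19, SLC19A1 and CRYBG2, the genes with the farthest outlying untreated replicate 3, stood close to each other, with differences of 0.56 between KCTD19 and SLC19A1, 0.56 between SLC19A1 and CRYBG2 and 0.61 between KCTD19 and CRYBG2. KCTD19 was next most like METTL7B (0.69). SLC19A1 was most like MROH2A (0.53) and METTL4 (0.54), and CRYBG2 most like KIAA0895 (0.44) and METTL4 (0.46). MROH2A overlaps HJURP, a chaperone of centromeric histone, which had at most 10 reads in any library. It also lies within 1000 bases of UGT1 genes that were not analysed here. METTL4 overlaps a pseudogene and lies within 1000 bases of NDC80, which had 37 to 88 reads per library. DUOXA2 lies within 1000 bases of DUOX2 and DUOXA1, with at most 3 and 12 reads in any library. C1QL3 lies within 10000 bases of PTER, which had at most 2 reads. METTL7B and KIAA0895 were not found in the RefSeq table. KIAA0895 had 1 read in each healthy library and 4 to 55 in defect libraries.

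FBXL13 was most like METTL7B (0.70), SLC19A1 (0.71) and KCTD19 (0.76). METTL7B had 6.60, 11.2 and 3.61 normalised reads in healthy, 65.4, 62.0 and 127 in untreated and 85.8, 74.8 and 137 in CLCS libraries. SLC9A5 was most like PMCH (0.78), FBXL13 (0.81) and KCTD19 (0.88). Its own neighbours were far down the same ranking, PLEKHG4 at 2.56 in place 3339 and FHOD1 at 2.84 in place 3615 of 3811. For KCTD19, LRRC36 stood at 2.40 in place 2995 and PLEKHG4 at 2.46 in place 3130.

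Over the lists of families, pathways and tissues, 45 genes other than the 7 were tested in untreated and 42 in CLCS samples, and limma called 1 in each contrast, SHMT2 lower and COL4A2 higher. At an unadjusted p under 0.05 limma counted 12 (26.7%) and 11 (26.2%) of them, beside 16.6% and 17.5% of all tested genes. By edgeR 1 (2.22%) and 3 (7.14%) were called, beside 2.49% and 3.73% of all genes, and by DESeq2 7 (15.6%) and 5 (11.9%), beside 7.87% and 7.38%. The calls of DESeq2 were SHMT2, FHOD1, SLC46A1, SPHK1, PDE6A, COL4A1 and COL4A2 in untreated samples and FHOD1, SLC46A1, PLEKHG6, COL4A1 and COL4A2 in CLCS samples. Counts of calls that follow for these lists are those of limma. Beside FBXL13, FBXL22 of the same family had a log2 fold change of 0.08 in untreated and 0.15 in CLCS samples and was not called by limma. Of 4 genes of the SCF ligase core in the tables, 2 were tested and 0 called by limma in either contrast. KCTD10 was the 1 further KCTD gene tested (0.29 and 0.61, not called). SLC9A2, an exchanger of epithelia, had 0.26 and 0.32, also not called, and SLC9A3 had 0 to 1 read in healthy, 4 to 8 in untreated and 4 to 9 in CLCS libraries, too few to be tested. PLEKHG4 and PLEKHG6 were the PLEKHG genes tested, with a median of -1.13 and -1.41 and 0 calls by limma, and 4 formins, FHOD1 among them, had a median of -1.07 and -0.90 with 0 calls by limma. Over all tested genes the median was -0.02 (untreated) and -0.08 (CLCS).

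For SLC19A1, 7 other genes of folate and one-carbon metabolism were tested in untreated and 6 in CLCS samples, with a median log2 fold change of -0.29 and -0.00. SHMT2 encodes the mitochondrial enzyme that moves the carbon unit of serine onto folate. It was called lower in untreated samples (log2 difference -2.11, SE 0.36, limma adjusted p = 0.0324), beside 1.2% of all tested genes called lower. The counts assigned to SHMT2 ranged over 9251 to 19859 (healthy) and 3176 to 3992 (untreated). Its healthy mean of 14530 normalised reads lay above that of COL2A1, 7817. Genes beside SHMT2 were not examined as those beside the 7 genes were. The gene and strand that its reads came from, and any change in folate metabolism, were therefore not tested. SLC46A1, the proton-coupled folate transporter, lay 1.11 higher on the log2 scale (SE 0.27, limma adjusted p = 0.0860) in untreated samples and 1.28 higher (SE 0.28) in CLCS samples, called by limma in neither and by DESeq2 in both. SLC19A2, a thiamine transporter of the same family as SLC19A1, had at most 1 read in any library.

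For CERKL, 6 genes of ceramide and sphingosine metabolism were tested in untreated samples and 5 in CLCS samples, with a median of 0.37 and 0.38 and 0 calls by limma. SPHK1, the kinase that forms sphingosine 1-phosphate, had the values 2.61 (SE 0.63, limma adjusted p = 0.0848) and 1.71 (SE 0.74). PDE6A, a phosphodiesterase of rod photoreceptors and the 1 further retina gene tested, had 2.09 (SE 0.44, limma adjusted p = 0.0627) and 1.16 (SE 0.44). MCHR1, the receptor of the PMCH product, had -1.13 (SE 0.39, limma adjusted p = 0.192) and -0.95 (SE 0.40), and it was the 1 gene of its list tested.

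Of meiosis genes other than KCTD19, DMC1, SPO11 and MEIOB were tested, with a median of -0.22 in untreated and 0.01 in CLCS samples and 0 calls. No crystallin gene apart from CRYBG2 had enough reads, and CRYBG1 had 2 to 12 reads per library. Partners and ligands of the alpha 4 integrin, 4 tested, had a median of 0.39 and 0.15 and 0 calls by limma, edgeR and DESeq2, with 1 of 4 at an unadjusted p under 0.05 in each contrast. Of 8 basement membrane genes tested beside the COL18A1 locus, COL4A2 was called higher in CLCS samples (log2 fold change 1.99, SE 0.39), with a list median of 0.55, and 0 were called in untreated samples, with a median of 0.01. Of 11 proliferation genes in the tables, 2 were tested, CCNB1 and CDK1, with a median of -0.50 in untreated and -0.40 in CLCS samples and 0 calls. Another 5 had at most 3 reads in every library. The rest, MKI67, TOP2A, PCNA and MCM2, had too few reads to be tested and higher means in both kinds of defect. MKI67 had 0 to 3 reads in healthy, 2 to 31 in untreated and 6 to 9 in CLCS libraries.

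Summed markers of bone and fibrous tissue were higher in the defect libraries, as the 7 genes were. The 9 osteoblast markers summed to 422 to 1341 normalised reads in healthy, 3825 to 5538 in untreated and 3865 to 5569 in CLCS libraries, and all 7 that were tested had positive log2 fold changes in both contrasts, with the collagen genes COL1A1 and COL1A2 called in both and IBSP, bone sialoprotein, in CLCS samples. The 12 fibroblast markers summed to 605 to 1231 in healthy, 1808 to 5143 in untreated and 2516 to 4160 in CLCS libraries. COL1A1, which both lists hold, led this sum in the untreated libraries and in CLCS replicates 1 and 2. COL3A1 led it in healthy replicates 2 and 3 and CLCS replicate 3, and DCN in healthy replicate 1. Of the 7 tested, COL1A1, COL1A2 and POSTN were called in both contrasts by limma. The fibroblast list did not move as 1: 5 of 7 were above 0 in untreated and 4 of 7 in CLCS samples, and DCN, the proteoglycan decorin, had log2 fold changes of -2.22 (SE 0.88) and -1.79 (SE 0.74), called by DESeq2 and not by limma. Medians were 2.02 and 1.93 for the osteoblast and 0.58 and 1.25 for the fibroblast list. The 6 osteoclast markers summed to 6.32 to 34.9 in healthy, 67.1 to 163 in untreated and 46.1 to 162 in CLCS libraries, with 2 tested, CTSK and MMP9, medians of 2.94 and 2.59 and 0 calls by limma and edgeR. DESeq2 called CTSK and MMP9 in untreated samples and MMP9 in CLCS samples. Over all marker lists 29 genes were tested in untreated and 28 in CLCS samples. Limma called 3 and 4 of them, all higher, beside 1.34% and 2.13% of all tested genes called higher. By edgeR 2 (6.90%) and 4 (14.3%) were called, beside 2.49% and 3.73%, and by DESeq2 7 (24.1%) and 7 (25%), beside 7.87% and 7.38%. At an unadjusted p under 0.05 limma counted 14 (48.3%) and 10 (35.7%), beside 16.6% and 17.5%.

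Untreated replicate 3, highest for all 7, had the lowest osteoblast sum (3825) and the second lowest osteoclast sum (67.1) of the defect libraries, and the highest fibroblast sum (5143) of all 9. The 10 chondrocyte markers summed to 8183 to 10832 in healthy and to 10010 to 28090 in CLCS libraries, with 7 tested, medians of -1.19 in untreated and 0.07 in CLCS samples and 0 calls by limma. Macrophage markers summed to 36.5 to 49.9 in healthy, 51.0 to 119 in untreated and 54.8 to 70.9 in CLCS libraries, and again untreated replicate 3 held the highest sum. Their medians were 0.58 and 0.03, with 3 and 2 tested and 0 calls by limma. Lymphocyte markers (90.9 to 141 over all libraries, medians -0.19 and -0.42), endothelial markers (40.8 to 76.1, medians -0.29 and -0.33) and skeletal muscle markers (5.44 to 47.9, none tested) had 0 calls by limma, edgeR and DESeq2. The part of these cell types in the values of the 7 genes was not tested.

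**Figure D4:**
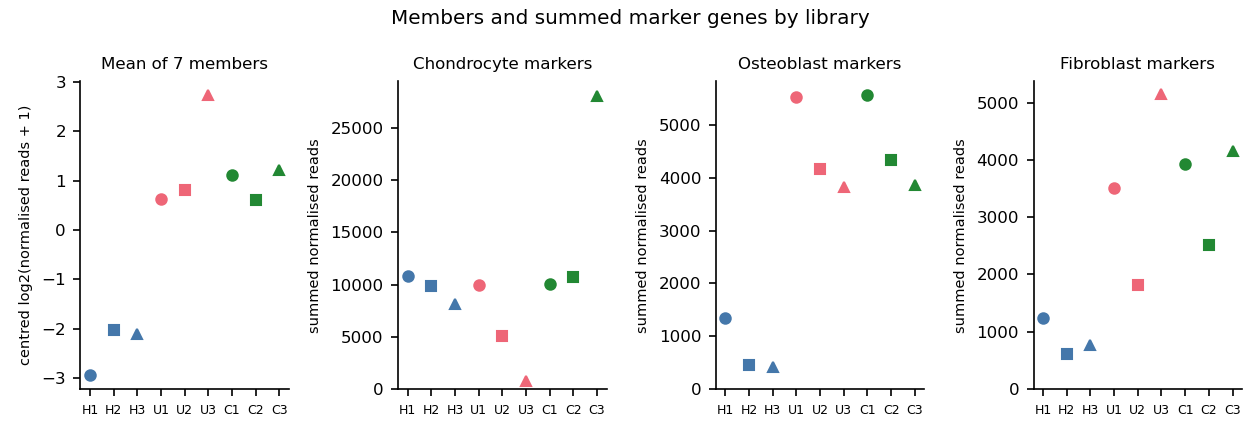
The first panel plots the mean of the centred log2 values of the 7 genes in each library (H healthy, U untreated, C CLCS, with the replicate number), and the other panels the summed normalised reads of the chondrocyte, osteoblast and fibroblast markers. The 7 genes peak in untreated replicate 3 (2.73), where chondrocyte markers are lowest (754) and fibroblast markers highest (5143).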

How the data were processed

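RNA was measured in 9 cartilage libraries, 3 per group. The authors selected polyA RNA, made TruSeq libraries, checked reads with FastQC, used TopHat with Bowtie for alignment to oryCun2.0, left out multiple alignments, counted genes with eXpress and normalized by DESeq2. Tool versions, the annotation release and the strand setting are not given in the sources used here. The methods name a base quality threshold and a filter on transcripts present or absent per condition, without its rule. Their deposited unit is a signal, the count of a gene divided by the size factor of its library. In each library 100% of values were whole multiples of 1 read (tolerance 0.01), so reads were recovered. The healthy columns, repeated in both tables with identical values, were used once, and 0 columns were left out. Recovered totals of 724986 to 1226408 reads per library, far below the aligned pairs listed in the paper, limit the precision of genes with few reads.

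Each pair of groups was compared by limma 3.58.1 (R 4.3.3), on the log2 scale with a pseudocount of 1, over genes kept by filterByExpr of edgeR on the recovered reads of its 6 libraries, with Benjamini-Hochberg adjustment over those genes. A gene counted as called where the adjusted p was under 0.05. Standard errors and 95% intervals use the moderated variance of limma. The study's own test was DESeq2. On the recovered reads, edgeR 4.0.16 called 87 and 123 genes in untreated and CLCS against healthy samples, and DESeq2 1.42.0 called 275 and 243. Other pseudocounts, filters, scaling, fits and left-out libraries were alternatives. The limma fit of untreated against healthy samples was also run on simulated data, with an outcome not reported here.

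Replicate numbers were checked for pairing by the correlation across genes of the deviations from the group means: 0.29, 0.12 and -0.04 between untreated and healthy libraries of numbers 1, 2 and 3, then 0.28, 0.15 and 0.19 between CLCS and healthy ones, then 0.25, 0.34 and 0.30 between CLCS and untreated ones. By the rule that every pair exceeds 0.1, the numbers were taken to pair samples in both CLCS contrasts, although the labels do not state what a number marks. Correlations between libraries of unlike number were not computed, so the pairing was not established.

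Neighbours are genes of the RefSeq table (mOryCun1.1) that overlap one of the 7 genes or lie within 10000 bases. Strand was planned but is not in that table, and no coordinates or sequences are printed. Genes named are the 7, these neighbours, the 3 genes of most similar profile per gene and the genes beside those. Genes of 24 lists of families, pathways and cell markers are named where a list's result is given. The members and lists were chosen with earlier results of these data known. Python 3.11.15 was used for tables and plots.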

Additional observations from a re-analysis of the deposited data

How the results depend on the processing

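Log2 fold changes of the 7 genes against healthy cartilage kept their sign under all alternatives run. The number of genes called depended on the processing; the cause was not tested. In untreated against healthy samples, 89 genes were called by limma, 20 without a filter on low values, 275 by DESeq2, 173 with all 9 libraries in 1 fit and 2 to 7 with 1 library left out. Of the list genes other than the 7, 4 were called, 1 without the filter, 14 by DESeq2, 7 with the replicate block and 0 to 2 with 1 library left out. In CLCS against healthy samples, 104 genes were called, 13 without the filter, 243 by DESeq2 and 0 to 81 with 1 library left out, and of the list genes 5, 8 at a pseudocount of 4, 1 without the filter, 12 by DESeq2 and 0 to 6 with 1 library left out. Neighbours called were 0 by limma, and 2 and 1 by DESeq2 in these contrasts. Adding the replicate number as a block, a pairing that the labels do not state, gave 94, 125 and 0 called genes in the 3 comparisons. Of the 7 genes it gave 4, 7 and 0, with CERKL (adjusted p = 0.0214 from limma) the gene gained in CLCS samples. Signs turned when 1 library was left out, with ranges over those fits of -0.60 to 0.32 for LRRC36 in CLCS against healthy samples (above 0 without healthy replicate 2 at 0.29 and without CLCS replicate 1). Between both kinds of defect the ranges were -0.56 to 0.52 for FBXL13, -0.54 to 0.97 for KCTD19, -0.59 to 0.13 for SLC9A5, -0.93 to 0.71 for SLC19A1, -0.90 to 0.84 for CRYBG2 and -0.39 to 0.49 for FHOD1, and those of CERKL (-1.52 to -0.88) and PMCH (-0.89 to -0.37) stayed below 0. The upper ends of the first 5 came without untreated replicate 3. KCTD19 (0.43) and CRYBG2 (0.23) also turned without CLCS replicate 2 and FBXL13 (0.06) without CLCS replicate 3. In that contrast 0 genes were called under any alternative. With 3 libraries a group the smallest exact p is 0.1, and low read numbers limit the precision of CRYBG2 and PMCH in healthy libraries and left 5 neighbours untested.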
